A study of Mus musculus with 8 samples.

Results

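The dual-specificity phosphatases Dusp1, Dusp4, Dusp5 and Dusp6 and the Sprouty genes Spry1, Spry2 and Spry4 were followed in mouse mammary tissue after 17β-estradiol (E2), the main circulating estrogen. All probe sets whose annotation gives one of these 7 gene symbols were taken, which were 11 of the 45037 probe sets on the arrays that are not controls. Spry4 had 4 probe sets, Spry2 had 2, and the other 5 genes had 1 each. E2-treated and vehicle-treated animals were all gonadectomized virgin mice of 12 to 13 weeks, whose own ovarian estrogen is thereby gone, and the inguinal mammary gland was collected. E2 was given under the skin, and tissue was taken at 6 times from 1 h to 24 h afterwards, with 1 array per time. The reference was 2 arrays of tissue from mice given a vehicle solution, both labelled 24 h. The strain is not given in the labels, and the dose carries 2 conflicting units there, so none is stated.

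The times come from the sample titles, while every description reads 24 h, a conflict that the sources do not settle. No vehicle array was labelled 1 to 18 h, so at those times E2 cannot be told apart from the injection or the time of day. Whether an array holds RNA pooled from several mice is not stated, and p-values reflect only how far these arrays spread, which may be technical. Array medians lay between 173.9 and 180.49 in intensity, and over the probe sets tested the SD of the log2 difference between vehicle arrays was 0.138. Luminal epithelial markers, the milk duct and alveolar lineage, averaged 9.27 to 9.75 in log2 intensity on the E2 arrays against 9.37 and 9.38 on the vehicle arrays, and adipocyte markers averaged 12.11 to 12.29 on the E2 arrays against 12.18 and 12.23 on the vehicle arrays. In whole tissue, fewer cells of a type and less RNA per cell cannot be told apart.

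Growth factors that bind receptor tyrosine kinases switch on Ras, Raf, MEK and the kinase ERK, which enters the nucleus and drives transcription of immediate early genes. The pathway also switches on its own brakes. Dual-specificity phosphatases remove the activating phosphates from ERK and its relatives JNK and p38, while Sprouty proteins act further up, between the receptor and Raf. In the mammary gland this pathway carries signals of the epidermal and fibroblast growth factors, which guide duct growth, and part of the action of estrogen on epithelium is relayed by such growth factors. Dusp1, Dusp4 and Dusp5 are nuclear enzymes and Dusp6 is cytoplasmic.

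All values below are log2 of the deposited intensity, and differences are E2 minus the mean of the 2 vehicle arrays unless stated otherwise. Levels of different probe sets are not on 1 scale and were not set against each other. A probe set entered the tests when its mean over the 8 arrays reached the 40th percentile, 6.97 in log2, which left 27022 probe sets. Of the members, 9 of 11 probe sets passed, with every gene represented, and the 2 below the threshold were both of Spry4.

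Dusp4, a nuclear phosphatase of ERK and JNK, had the widest span of the members. Its probe set 1428834_at read 9.50 and 9.28 at 1 and 3 h after E2, 8.89 and 8.86 at 6 and 12 h, and 8.62 and 8.50 at 18 and 24 h, against 8.78 and 8.66 on the vehicle arrays. Every array from 1 to 12 h lay above both vehicle arrays, and those of 18 and 24 h lay below both. In order of level the E2 arrays followed their times without exception. The gap of 0.22 between 1 and 3 h and that of 0.39 between 3 and 6 h exceeded the gap of 0.12 between the vehicle arrays, while 6 and 12 h differed by 0.03.

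At 1 h Dusp4 was 0.78 above the vehicle mean, a 1.71-fold difference, and 0.72 and 0.84 above the single vehicle arrays. Of the 9 tested member probe sets it alone differed by 1.5-fold or more from each vehicle array, the direction being the same for both, and it did so at 1 h only. Among all tested probe sets, in time order from 1 to 24 h, 0.192%, 0.414%, 0.385%, 0.118%, 0.107% and 0.115% were that far above both vehicle arrays. The shares that far below both were 0.0222%, 0.196%, 0.148%, 0.0481%, 0.0333% and 0.0481% in the same order. The 3 h array was 0.55 above the vehicle mean, or 1.47-fold. A limma fit with 7 group means, which has 1 residual degree of freedom and assumes that single arrays vary as the vehicle arrays do, gave Dusp4 an SE of 0.0961 at each time. Its Benjamini-Hochberg adjusted p over all tested probe sets was 0.0767 at 1 h and 0.0764 at 3 h, so neither passed 0.05. With no filter on low values the same fit gave adjusted p = 0.0277 at 1 h and 0.0453 at 3 h.

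Dusp1, a nuclear phosphatase that acts on p38 and JNK as well as ERK and is itself an immediate early gene, had its highest reading at the same hour. Probe set 1448830_at read 11.42, 11.29, 11.02, 10.94, 10.90 and 11.06 from 1 to 24 h after E2, against 11.00 and 11.11 on the vehicle arrays. The 1 and 3 h arrays were above both vehicle arrays, those of 12 and 18 h were below both, and those of 6 and 24 h lay between. The difference at 1 h was 0.36, or 1.28-fold, and that at 3 h was 0.23, which the fit with 7 group means did not call (adjusted p = 0.751 at 1 h and 0.839 at 3 h).

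Dusp5, a nuclear phosphatase specific for ERK, was also highest at 1 h and next at 3 h, within a narrower range, and was lowest at 12 h. Its readings at probe set 1437199_at were 8.75, 8.71, 8.62, 8.48, 8.53 and 8.57 after E2, against 8.58 and 8.63 on the vehicle arrays. The 1 and 3 h arrays were above both vehicle arrays and the 12, 18 and 24 h arrays below both. The largest difference from the vehicle mean was 0.14 at 1 h, about 1.10-fold.

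Dusp6, the cytoplasmic phosphatase specific for ERK, was highest later. Probe set 1415834_at read 10.23, 10.34, 10.44, 10.23, 9.99 and 9.99 from 1 to 24 h after E2, against 10.19 and 10.27 on the vehicle arrays. Its 1 h array lay between the vehicle arrays, its 3 and 6 h arrays above both and its 18 and 24 h arrays below both. The 6 h difference was 0.21, those of 18 and 24 h were each -0.24, and the 18 h array stood 0.20 below the lower vehicle array, more than the 0.08 between the vehicle arrays.

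**Figure D1:**
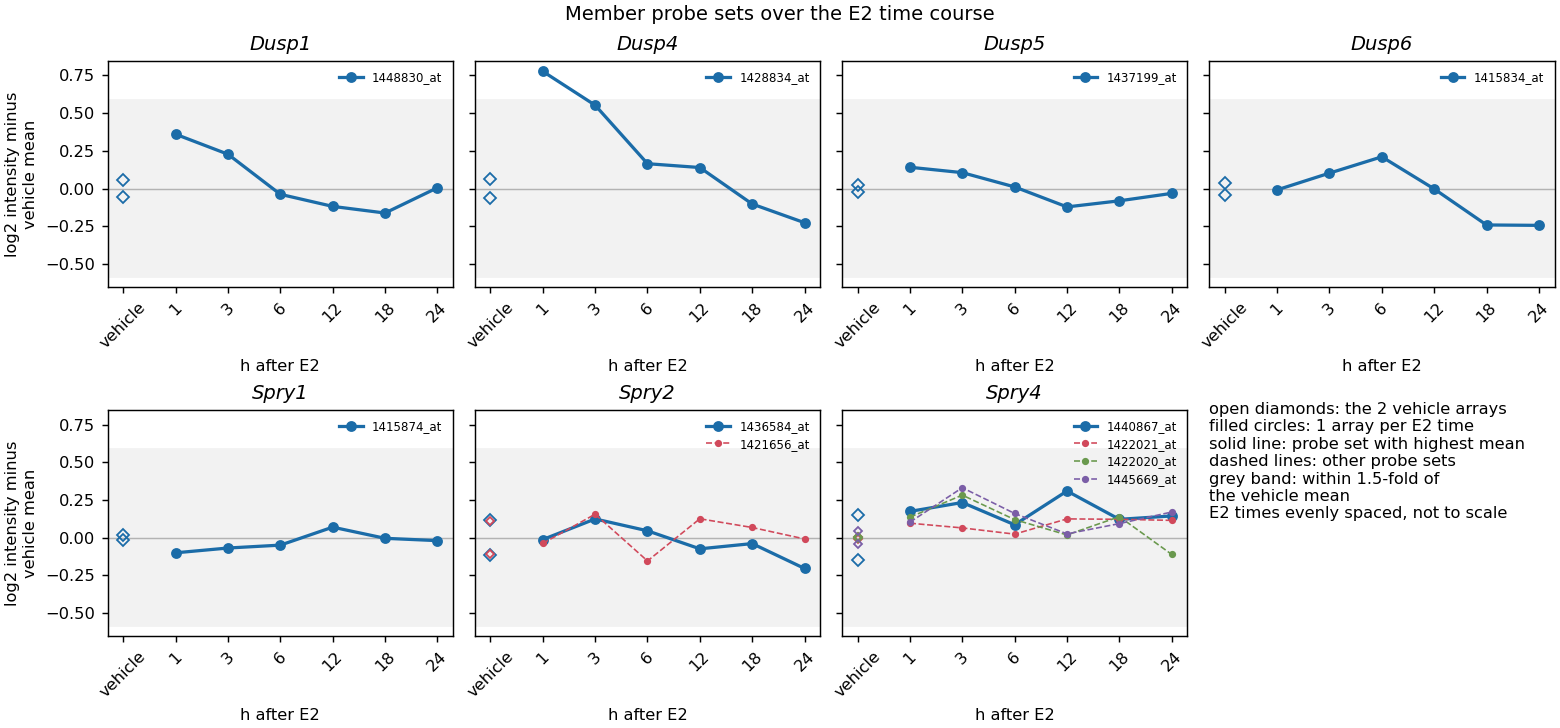
Log2 intensity minus the vehicle mean (vertical axis) for all 11 probe sets of the 7 genes on the 2 vehicle arrays (open diamonds) and the 6 E2 arrays (circles, hours after E2, evenly spaced). Dusp4 starts at 0.78 at 1 h and ends at -0.23 at 24 h, and Dusp6 is highest at 6 h. All probe sets but that of Dusp4 stay within 1.5-fold of the vehicle mean (grey band).

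No Sprouty probe set was 1.5-fold from the vehicle mean at any time, nor was that of Dusp1, Dusp5 or Dusp6. Spry1, an inhibitor of growth factor signalling to Ras and Raf, read 8.84, 8.88, 8.89, 9.01, 8.94 and 8.92 after E2, against 8.93 and 8.96 on the vehicle arrays. Its arrays of 1, 3 and 6 h were below both vehicle arrays, opposite to Dusp4 at those hours, by 0.05 to 0.10. Only the 12 h array was above both.

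Spry2, which also restrains Ras and Raf and binds the ubiquitin ligase Cbl, read 9.15, 9.29, 9.21, 9.09, 9.12 and 8.96 at probe set 1436584_at after E2, against 9.28 and 9.05 on the vehicle arrays. The vehicle arrays were 0.23 apart, none of the 7 gaps between neighbouring levels exceeded that, and only the 24 h array lay below both. Its other probe set, 1421656_at, read 7.43 to 7.74 after E2, against 7.69 and 7.47 on the vehicle arrays, and its Pearson correlation with the first was 0.34 over the 8 arrays. Where the first was 0.05 above the vehicle mean at 6 h, the second was at -0.15.

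Spry4, a Sprouty protein that inhibits receptor-driven ERK activation, read 7.82, 7.88, 7.73, 7.96, 7.77 and 7.79 at 1440867_at after E2, against 7.80 and 7.50 on the vehicle arrays. Vehicle 1 and vehicle 2 differed by 0.30 there, the largest gap of any member, and 5 of the 6 differences from their mean were smaller than that. At 1422021_at all 6 E2 arrays, at 7.29 to 7.39, lay above both vehicle arrays, at 7.25 and 7.27, by at most 0.12 over their mean. The probe sets below the level threshold, 1422020_at and 1445669_at, read 6.60 to 7.0 and 5.28 to 5.59 after E2, against 6.71 to 6.72 and 5.21 to 5.30 on the vehicle arrays, and both were highest at 3 h. Correlations among the 4 probe sets ran between 0.02 and 0.59 over 8 arrays. The probe sets spanned only 0.13 to 0.46 in log2, so these correlations cannot tell whether they share 1 time course.

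Counted by gene with the probe set of highest mean, 4 of the 7 members were above both vehicle arrays at 1 h and 6 at 3 h, then 2 at 6 h and 3 at 12 h, and 0 at 18 and 24 h. Of all tested probe sets 35.1%, 32.7%, 36.7%, 33.5%, 31.0% and 32.1% were above both, in time order. Below both lay 1 member at each of 1, 3 and 6 h, which was Spry1, then 2 at 12 h and 4 and 5 at the last 2 times. The shares of all tested probe sets below both were 27.2%, 29.0%, 31.8%, 27.7%, 38.6% and 42.5%, in the same order. The count of 6 of 7 above both at 3 h stood farthest from its share, and was singled out after the counts were seen. Counted by gene, 4509 of all 13281 tested were above both at 3 h. Spry2, 1 of the 6, exceeded the higher vehicle array by only 0.0076. The median difference over the 7 genes was 0.14, 0.12, 0.05, -0.00, -0.08 and -0.03 from 1 to 24 h. Over all genes tested it stayed between -0.01 and 0.02. At no time did the fit with 7 group means call a member probe set, where it called 17, 157, 104, 14, 3 and 0 of all tested probe sets (0.0629%, 0.581%, 0.385%, 0.0518%, 0.0111% and 0%).

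Which members differ over several arrays was asked with windows of 3 arrays each, early (1 to 6 h after E2) and late (12 to 24 h), beside vehicle (n = 2), in 1 limma fit. Change within a window counts as error there, which weighs on genes that are high for 1 or 3 h only. In early minus vehicle, Dusp4 averaged 9.22 ± 0.31 in the early window and 8.72 ± 0.09 in vehicle (SD), a difference of 0.50 ± 0.155 (SE, limma adjusted p = 0.748, unadjusted p = 0.00891). Dusp1 differed by 0.18 ± 0.102 (SE, limma adjusted p = 0.971), Spry4 by 0.16 at 1440867_at (0.01 to 0.31 with 1 vehicle array left out), Dusp6 by 0.10, Dusp5 by 0.09 and Spry1 by -0.07. The fit called 0 of 9 member probe sets, with 1 at an unadjusted p below 0.05, and it called 1 of 27022 in all, a probe set of the keratin Krt10 (0.00370%, with 1420 at an unadjusted p below 0.05, 5.25%). Arrays lay above both vehicle arrays without overlap for 2 member probe sets, Dusp4 and Spry4 1422021_at, and below for Spry1, where 11.7% and 7.36% of all probe sets did so.

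In late minus vehicle, Dusp6 averaged 10.07 ± 0.14 in the late window and 10.23 ± 0.06 in vehicle (SD), a difference of -0.16 ± 0.0861 (SE, limma adjusted p = 0.662). Spry4 at 1440867_at differed by 0.19, Spry2 at 1436584_at by -0.11, Dusp1 by -0.09 and Dusp4 by -0.06. Leaving out 1 vehicle array put Spry4 at 0.04 to 0.34, and Spry2 turned to 0.01 without vehicle 1. With the skeletal muscle markers as a covariate Dusp1 turned to 0.02 and Dusp4 to 0.24. None of the 9 was called by limma, nor was any of the 27022 probe sets (0%). At an unadjusted p below 0.05 there were 0 of 9 members and 2080 probe sets, or 7.70%. Spry4 1422021_at was above without overlap and Dusp5 below, where 11.3% and 13.2% of all probe sets were.

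In late minus early, a difference that holds no vehicle array, all 4 phosphatases were lower. Dusp4 averaged 8.66 ± 0.19 in the late window and 9.22 ± 0.31 in the early window (SD), a difference of -0.56 ± 0.139 (SE, limma adjusted p = 0.126). Dusp1 differed by -0.27 ± 0.0912 (SE, limma adjusted p = 0.214), Dusp6 by -0.26 ± 0.077 (SE, limma adjusted p = 0.174) and Dusp5 by -0.16 ± 0.054 (SE, limma adjusted p = 0.209). The 4 phosphatases were thus lower late than early with an unadjusted p below 0.05, and none passed after adjustment. Spry2 at 1436584_at differed by -0.16, Spry1 by 0.09 and Spry4 at 1440867_at by 0.03. Whether the phosphatases and the Sprouty genes differ was not tested.

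In that comparison limma called 0 of 9 member probe sets and 84 of all 27022 (0.311%). At an unadjusted p below 0.05 there were 4 of 9 members and 16.1% of all probe sets. Without overlap, 3 member probe sets were lower late than early (Dusp4, Dusp5 and Spry2 1436584_at) and 2 were higher (Spry1 and Spry4 1422021_at), where 12.1% and 9.19% of all probe sets were. Over the alternatives run the Dusp4 difference kept its sign in 16 of 16, with adjusted p between 0.0165 and 0.412. It passed 0.05 with the mean of the skeletal muscle markers as a covariate (-0.66, limma adjusted p = 0.0165), where 1445 of all 27022 probe sets were called. It also passed without the 6 h array (-0.73, limma adjusted p = 0.0262), where 126 of all were called.

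**Figure D2:**
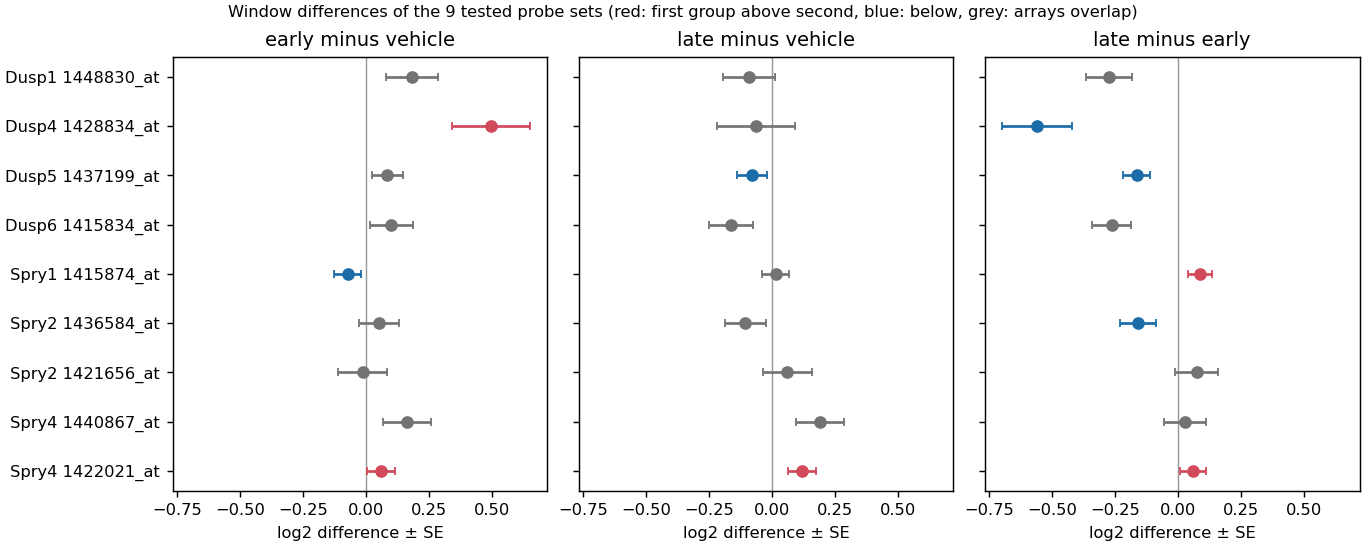
Log2 differences (horizontal axis, bars are SE of the limma fit) of the 9 tested member probe sets in 3 comparisons of windows, with early at 1, 3 and 6 h and late at 12, 18 and 24 h after E2. Dusp4 has the largest difference in early minus vehicle (0.50) and in late minus early (-0.56), and no point passed the adjusted p of 0.05.

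Markers of other cell types differed between the arrays beside these results. Skeletal muscle markers averaged 9.83, 9.70, 10.44, 9.34, 9.85 and 10.15 from 1 to 24 h after E2, against 9.33 and 8.90 on the vehicle arrays, and on every early array 18 of the 20 genes lay above both vehicle arrays. With that mean as a covariate Dusp4 differed by 0.89 in early minus vehicle (limma adjusted p = 0.152) and Dusp1 by 0.33 (limma adjusted p = 0.340). The marker mean was lowest on the vehicle arrays, so covariate and treatment overlap in that fit. B and T lymphocyte markers averaged 9.32 at 18 h and 9.37 at 24 h after E2, against 9.61 and 9.91 on the vehicle arrays. All 12 were below both vehicle arrays at each of these times. Dusp4 and Dusp6 also had their lowest readings at 18 and 24 h, Dusp1 was lowest at 18 h and Spry2 1436584_at at 24 h. The lowest intensity of any probe set was 13.8, so a marker reading above 0 does not show that its cell type was present.

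In late minus early, where the 4 phosphatases were lower, several marker lists also leaned one way, beside 7288 of all 13281 genes tested that were lower. Luminal epithelial markers were higher in 12 of 13, averaging 9.58 to 9.75 on the late arrays and 9.27 to 9.41 on the early arrays, and limma called Krt8 (1.15, adjusted p = 0.0413) and Cldn3 (0.46, adjusted p = 0.0413). Macrophage and myeloid markers were lower in 12 of 12, averaging 11.42 to 11.57 late and 11.53 to 11.72 early. Fibroblast markers were lower in 10 of 10, averaging 12.40 to 12.50 late and 12.54 to 12.63 early. Lymphocyte markers were lower in 12 of 12, endothelial markers in 10 of 12 and skeletal muscle markers in 18 of 20. The part of these lists in the members' values was not tested.

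Over the 8 arrays the 3 nuclear phosphatases followed each other. Pearson r was 0.95 for Dusp1 with Dusp5, 0.82 for Dusp1 with Dusp4 and 0.77 for Dusp4 with Dusp5, as a description over arrays of 1 time course (n = 8). Spry1 had negative values, with r = -0.86 for Dusp5, -0.76 for Dusp1, -0.66 for Dusp4 and -0.23 for Dusp6. It spanned only 0.17 in log2 over the 8 arrays, and Dusp5 spanned 0.26. Dusp6 had r = 0.31 with Dusp1 and 0.51 with Dusp4.

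The RefSeq promoter windows (build GRCm38.p6, 250 bases before the start site to 50 after) were read for 5 of the 7 members, Dusp1, Dusp5, Dusp6, Spry1 and Spry2. No window was read for Dusp4, the member with the widest span, or for Spry4, so nothing is said of their promoters. Those of the 2 nuclear phosphatases are shown because their arrays ran together most closely, and that of Dusp6 because it is the phosphatase that was highest later. Capitals mark the motif matches, and the strand shown is the gene's own.
Dusp1: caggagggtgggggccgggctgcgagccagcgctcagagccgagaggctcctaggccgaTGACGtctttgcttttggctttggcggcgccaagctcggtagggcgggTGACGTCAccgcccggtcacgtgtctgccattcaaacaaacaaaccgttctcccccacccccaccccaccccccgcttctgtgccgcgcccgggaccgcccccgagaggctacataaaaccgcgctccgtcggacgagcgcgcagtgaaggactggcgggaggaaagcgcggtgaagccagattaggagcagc
Dusp5: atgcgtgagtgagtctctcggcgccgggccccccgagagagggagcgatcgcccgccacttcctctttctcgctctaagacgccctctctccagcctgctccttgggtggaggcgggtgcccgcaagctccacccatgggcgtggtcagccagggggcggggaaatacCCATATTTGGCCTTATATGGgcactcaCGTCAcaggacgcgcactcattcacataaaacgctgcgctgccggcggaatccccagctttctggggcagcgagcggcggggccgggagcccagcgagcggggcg
Dusp6: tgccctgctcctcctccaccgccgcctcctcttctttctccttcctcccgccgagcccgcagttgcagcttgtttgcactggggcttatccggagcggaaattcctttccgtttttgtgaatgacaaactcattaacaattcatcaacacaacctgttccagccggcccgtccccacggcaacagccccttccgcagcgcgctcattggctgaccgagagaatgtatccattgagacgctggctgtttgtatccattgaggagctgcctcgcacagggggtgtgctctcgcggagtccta
The windows lie at chr17:26508423-26508722 on the minus strand for Dusp1, chr19:53528895-53529194 on the plus strand for Dusp5 and chr10:99262981-99263280 on the plus strand for Dusp6.

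Both strands were searched for 7 motifs. The Dusp1 window held 1 cyclic AMP response element, TGACGTCA, at -143 to -136 from the start site, which 1.79% of 32851 windows hold. It also held the shorter core TGACG at -191 to -187, besides 2 such cores that lie inside the full element, and 20.8% of windows hold this core. The Dusp5 window held 2 CArG boxes, the element bound by serum response factor, side by side at -82 to -73 and -72 to -63, where 1.63% of windows hold any, and a core TGACG, read on the other strand, at -55 to -51. The windows of Dusp6, Spry1 and Spry2 held none of the 7. None of the 5 held an AP-1 site (TGANTCA, 7.81% of windows), an estrogen response element (0.0700%) or a glucocorticoid response element (0.475%). Nor did any hold the exact ETS form searched for (GCGGAAGT, 1.83%). Other forms of the ETS site were not searched, so their absence is not shown.

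The genes most like each member were ranked by Pearson r over the 8 arrays among about 561 genes that spanned at least 1.5-fold. For Dusp4 they were Fosb, which pairs with Jun proteins to form AP-1 (r = 0.98), Tiparp, an ADP-ribosyltransferase (r = 0.96), and Zfp36, an RNA-binding protein that speeds the decay of messenger RNA (r = 0.96). Fosb was 0.74, 0.57 and 0.11 above the vehicle mean at 1, 3 and 6 h, close to the 0.78, 0.55 and 0.17 of Dusp4. Dusp5 was most like Runx1, a transcription factor (r = 0.97), Thbs1, a secreted matrix glycoprotein (r = 0.95), and Fosl2, another AP-1 subunit (r = 0.94). Dusp1 was most like Spsb1 (r = 0.94), Thbs1 (r = 0.93) and Smim38 (r = 0.92).

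Dusp6 had other neighbours. They were Nop58, a nucleolar protein of ribosomal RNA modification (r = 0.92), Slc2a3, a glucose transporter (r = 0.91), and Egr1, an immediate early transcription factor (r = 0.91). Egr1 was 0.24, 0.70 and 0.51 above the vehicle mean at 1, 3 and 6 h and at -0.47 and -0.41 at 18 and 24 h. Spry1 was most like Stc2, a secreted glycoprotein (r = 0.89), Gata3, a luminal transcription factor (r = 0.87), and Plk2, a polo-like kinase (r = 0.81), and Gata3 lay at -0.71 and -0.86 at 1 and 3 h. The best matches of Spry2 (P2ry14, r = 0.76) and Spry4 (Ankrd9, r = 0.83) were weaker.

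**Figure D3:**
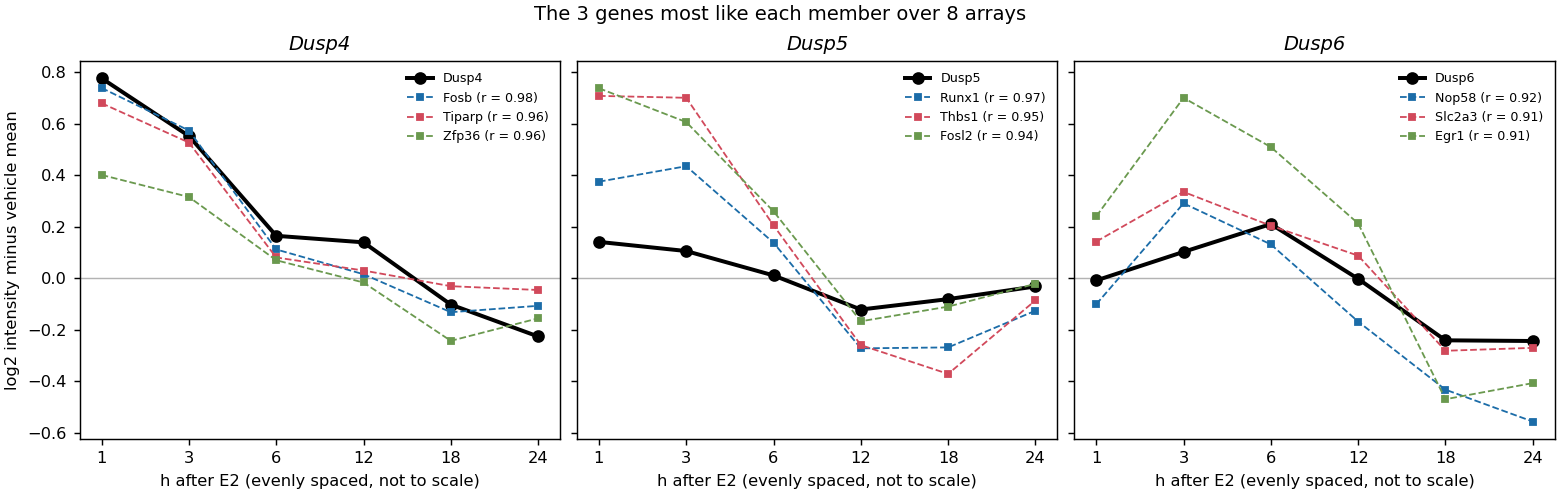
Log2 intensity minus the vehicle mean (vertical axis) at 1 to 24 h after E2 for Dusp4, Dusp5 and Dusp6 (black) and the 3 genes with the highest Pearson r to each over 8 arrays (dashed). Dusp4 and its neighbours are highest at 1 h, while Egr1, beside Dusp6, is highest at 3 h at 0.70.

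Other genes of the pathway place the members. Of 28 tested transcripts known to be induced through ERK, 26 were higher in the early window than in vehicle, 16 without overlap, with a median difference of 0.20, and 0 were called. Of all 13281 genes tested 7559 were higher and 1758 higher without overlap, with a median of 0.01. In late minus early 23 of 28 were lower, 18 without overlap, where 7288 and 1736 of all genes tested were. In that comparison limma called 7 of them, all lower, with a median of -0.30 against -0.01 over all genes tested, of which 53 of 13281 were called. Ccn1, a secreted matrix protein, differed by -1.22 (limma adjusted p = 0.0413), Fos, the AP-1 subunit, by -0.82 (limma adjusted p = 0.0171) and Fosl2 by -0.63 (limma adjusted p = 0.0413). Junb, Jun, Phlda1 and Ier3 were the other 4. The number called ran between 0 and 14 over 16 alternatives. It was 0 without the 18 h or the 24 h array, 1 without the 3 h or the 12 h array and 2 without either vehicle array. This list holds genes already known to differ in these arrays, so it is no independent evidence of direction.

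Close relatives of the members lay near vehicle. Of 16 other dual-specificity phosphatases tested, none was called in any window comparison, and their medians were 0.02 in early minus vehicle, 0.02 in late minus vehicle and -0.00 in late minus early. Dusp3, which also acts on ERK, was 0.10 above vehicle in the early window, Dusp14 was at 0.10 and Dusp2 at -0.08. Dusp14 and Dusp26 were at 0.21 and 0.13 in late minus vehicle.

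Among 17 other feedback inhibitors of receptor kinases and Ras, none was called in a window comparison, and the early median was 0.01. Errfi1, which binds and inhibits the epidermal growth factor receptor, was 1.48, 0.96 and 0.26 above the vehicle mean at 1, 3 and 6 h, called by the fit with 7 group means at 1 h (limma adjusted p = 0.00571) and 3 h (limma adjusted p = 0.0058). Socs3, an inhibitor of cytokine receptor signalling, was 1.09 above at 1 h and was called there. Spred1 and Spred2, the Sprouty-related inhibitors of Ras, were at 0.01 and 0.07 in early minus vehicle.

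Upstream genes showed few differences. Of 14 receptors tested, 0 were called in a window comparison. Fgfr2, a fibroblast growth factor receptor of mammary epithelium, lay at -0.84 at 3 h and Fgfr3 at 1.22, and both were called there by the fit with 7 group means. Pdgfra differed by 0.30 in early minus vehicle, and Erbb3 and Kdr by 0.17 and -0.16 in late minus vehicle. None of 15 ligands was called in a window comparison. Vegfa differed by 0.26, Hbegf by 0.19 and Igf1 by -0.11 in early minus vehicle, and Igf1 by -0.30 and Kitl by -0.12 in late minus vehicle.

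The kinase cascade gave few differences. None of its 18 adaptors, Ras proteins and kinases was called in a window comparison, and the medians were 0.02 in early minus vehicle and -0.02 in late minus vehicle. Ksr1, the scaffold that holds Raf, MEK and ERK together, was 0.58 above the vehicle mean at 3 h and was called there by the fit with 7 group means. Map2k1, which encodes the ERK kinase MEK1, was at 0.10 and Mknk2 at -0.14 in early minus vehicle. Of 14 kinases tested in a list of the JNK and p38 pathways, 0 were called in a window comparison. That list also holds Mapk7 and Map2k5, which belong to the separate ERK5 branch. Mapkapk2, a kinase downstream of p38, was at 0.21 and Map2k6 at -0.14 in early minus vehicle.

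Glucocorticoid target genes were followed because stress hormones also induce Dusp1. Of 15 tested, 12 were higher in the early window than in vehicle, 0 were called, and the median was 0.15 in early minus vehicle and 0.07 in late minus vehicle. Pdk4, a kinase that restrains pyruvate use, was at 0.67, Lcn2 at 0.43 and Cebpb at 0.29 in early minus vehicle. Whether glucocorticoids had a part in the Dusp1 values was not tested.

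Estrogen target genes differed at single times. This list was drawn up with earlier results of these arrays known, so it is no independent evidence of an estrogen response. Of 12 tested, 5 were higher and 7 lower in the early window and 0 were called in any window comparison. At 1, 3, 6 and 12 h, 1, 2, 2 and 1 lay at least 1.5-fold above both vehicle arrays. Of all 13281 genes tested 36, 74, 75 and 20 did so. As far below both lay 2, 3, 3 and 1, against 3, 28, 17 and 7 of all genes tested. At 18 and 24 h the list had 0 in either direction. Krt4, a keratin of stratified epithelia, was 3.40 above the vehicle mean at 3 h and Pgr, the progesterone receptor, 2.43 above. Foxa1, a pioneer factor of luminal cells, lay at -2.63 at 3 h, and Cited1, a transcriptional coactivator, at -2.02 at 6 h.

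**Figure D4:**
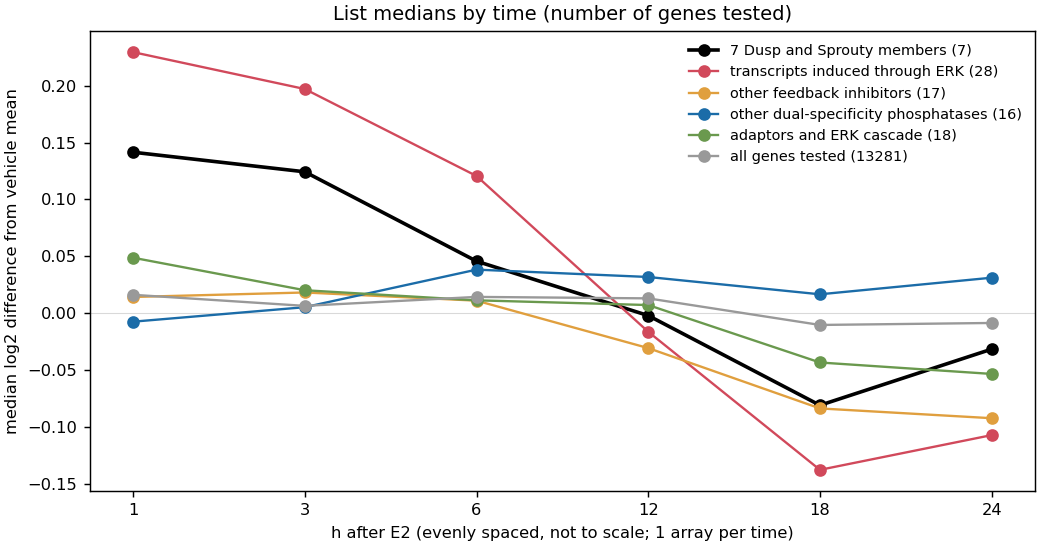
Median log2 difference from the vehicle mean (vertical axis) by hours after E2 for the 7 members and for other lists of pathway genes, with the number of genes tested in brackets and 1 array per time. The members' median is 0.14 at 1 h and -0.08 at 18 h, between the list of transcripts induced through ERK and all genes tested at 1 h.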

How the data were processed

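RNA was isolated with Trizol and biotin-labelled for Affymetrix arrays of 1 colour, per the labels. GCOS 1.0 and RMA appear in the submitters' processing notes without role or order. The authors deposited 1 intensity value per probe set on a linear scale, with near-equal medians on the 8 arrays. How the arrays were normalized is not given in the labels. The values were used as deposited, after log2. Of 45101 probe sets, 64 controls were left out, 34945 carried 1 gene symbol, 932 several and 9160 none. Through Entrez identifiers 34741 matched RefSeq of GRCm38.p6, and 0 symbols were updated.

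Tests covered the 27022 probe sets whose mean reached the 40th percentile (6.97 in log2, an intensity of 125). The windows (5 residual degrees of freedom) and the 7 group means were modelled with limma 3.58.1 (R 4.3.3), trended empirical Bayes, with two-sided p-values adjusted by Benjamini-Hochberg over all tested probe sets and called below 0.05. The script was tested on simulated data. The probe set of highest mean stood for a gene. All member probe sets are named, and from each pathway list up to 3 genes with the largest early and 2 with the largest late difference from vehicle. For each member the 3 genes with the highest Pearson r are taken, except that Spry2 and Spry4 are given by the first alone. Besides these, the ERK-induced genes that were called (Junb, Jun, Phlda1 and Ier3), Krt8, Cldn3, Krt10, Spred1 and Spred2 were named after their values were seen. Precision is limited by the number of arrays. Alternatives were other filters, quantile normalization, median centring, 1 probe set per gene, no trend, robust empirical Bayes (statmod 1.5.0), a muscle covariate, other thresholds and leaving out each array. The members, lists and settings were chosen with earlier results of these data known. Promoter windows come from RefSeq. Genes of the lists that carried no value in the table used here were not analysed here.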

Additional observations from a re-analysis of the deposited data

Results flagged for a closer look

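For 7 transcripts induced through ERK the difference from vehicle was not the same in the late and the early window, by limma's test of late minus early itself (log2, adjusted over 27022 probe sets). Their list holds genes already known to differ in these arrays, so these calls are no independent evidence. Ccn1 had -1.22 ± 0.178 (SE, adjusted p = 0.0413), at -0.13 from vehicle late and 1.09 early. Fos had -0.82 ± 0.0859 (SE, adjusted p = 0.0171), at -0.30 late and 0.52 early. Fosl2 had -0.63 (adjusted p = 0.0413), Junb -0.59 (adjusted p = 0.0413), Phlda1 -0.50 (adjusted p = 0.0479), Ier3 -0.45 (adjusted p = 0.0495) and Jun -0.36 (adjusted p = 0.0337). In each the late value was lower than vehicle and the early value higher, but 0 genes of the list were called in either comparison with vehicle. The late difference kept its sign in 15 of 16 alternatives for Ccn1, Junb, Phlda1 and Fosl2. Its highest value there was 0.31 for Ccn1, 0.04 for Junb, 0.03 for Phlda1 and 0.003 for Fosl2. Without the 18 h or the 24 h array none of the 7 was called, without the 3 h or the 12 h array 1 gene of the list was, and without either vehicle array 2 were. The highest number over 16 alternatives was 14, with the muscle covariate. No member passed this test, the nearest being Dusp4 at -0.56 (adjusted p = 0.126).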

How the results depend on the processing

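For early window minus vehicle the count of probe sets called was 1 in the fit reported, 2 with no filter, 0 with the 60th percentile filter and 11 with the skeletal muscle covariate. Leaving out 1 array gave 0 to 130, with 130 without the 1 h array, 23 without 6 h, 5 without 3 h, 2 without 18 h and 0 without either vehicle array. For late window minus early window it was 84, against 23 with quantile normalization, 10 with no trend and 1445 with the muscle covariate. Leaving out 1 array gave 1 to 403, with 403 without 1 h, 42 without either vehicle array, 9 without 3 h, 4 without 24 h, 3 without 12 h and 1 without 18 h. Late window minus vehicle gave 0 under each. The count of 1 member probe set past 1.5-fold at 1 h became 0 at 2-fold and 0 with limma on 7 group means. At 3 h it was 0, and 1 without vehicle 1, so 0 to 1.

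Of 675 alternative values of single members, 640 stayed within their spread and on their side of the threshold, 31 moved and 4 passed the threshold, all 4 of Dusp4. No paired analysis was possible because each E2 time has 1 array and the labels number the vehicle arrays alone. Signal limits Spry4, whose 2 dimmest probe sets lay below the level threshold, and the 0.30 between vehicle arrays at 1440867_at exceeds 5 of its 6 differences from their mean.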
